A study of Homo sapiens with 12 samples.

Results

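The genes described here are developmental transcription factors of families known as classic Polycomb targets, as measured in MDA-MB-231 cells, a triple-negative human breast cancer line of mesenchymal, basal character. They were chosen by name alone: every probe whose gene name was SOX, PAX, TBX, LHX, DLX, GATA, IRX, MEIS, MSX, POU3F, POU4F or FOX with 1 letter, each followed by a number, was a numbered gene of the sine oculis homeobox family (such as SIX4), or began with NKX. This took 155 of the 22184 probes on the array, or 126 of 18216 gene names. The rule uses no measured value, but the members and the gene lists below were chosen with earlier results of these data known. Total RNA was hybridised to 12 one-colour Illumina bead arrays. Every culture had received an siRNA: a negative control (siNC), or one against EZH2 (siEZH2), RELA (siRelA) or RELB (siRelB). TNFalpha at 10 ng/ml was added for 4 h to part of the cultures (TNF), and the rest had none (CTRL). The siNC CTRL and siEZH2 CTRL groups had 3 arrays each, and siNC TNF, siEZH2 TNF, siRelA CTRL, siRelA TNF, siRelB CTRL and siRelB TNF had 1 array each. Whether arrays of a group stem from separate cultures is not stated, and p-values therefore cover the array-to-array spread, possibly a technical one. An exception is named where it occurs. All samples were of 1 cell line under short siRNA treatment, and histone marks were not measured.

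EZH2 is the methyltransferase of Polycomb repressive complex 2, which methylates histone H3 at genes that it keeps silent. In embryonic stem cells and in many differentiated tissues, the start sites of homeobox, forkhead, SOX, GATA and T-box genes are among the best known places of that mark, and they often lie in CpG islands. RELA and RELB are NF-kB subunits. The families divide by the domain that binds DNA: a homeodomain in sine oculis, LHX, DLX, IRX, MEIS, MSX, NKX and POU proteins, a paired domain in PAX, an HMG box in SOX, a forkhead domain in FOX, a T-box in TBX and zinc fingers in GATA.

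Promoters are shown for the members whose signals changed with siEZH2 and for FOXC1, because CpG-rich start sites are the setting in which Polycomb targets are usually described. Each line gives the 250 bases before the RefSeq start (GRCh38.p14), 5′ to 3′ on the gene's own strand, with every CG dinucleotide in capitals. CG reads the same on both strands.
FOXC1, chr6:1609665-1609914, plus strand: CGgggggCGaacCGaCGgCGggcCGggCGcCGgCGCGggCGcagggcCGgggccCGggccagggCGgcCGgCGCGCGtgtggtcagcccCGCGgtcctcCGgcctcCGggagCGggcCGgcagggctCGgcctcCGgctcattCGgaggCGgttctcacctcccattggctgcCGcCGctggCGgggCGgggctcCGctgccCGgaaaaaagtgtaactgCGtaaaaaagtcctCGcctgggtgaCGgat
LHX4, chr1:180230014-180230263, plus strand: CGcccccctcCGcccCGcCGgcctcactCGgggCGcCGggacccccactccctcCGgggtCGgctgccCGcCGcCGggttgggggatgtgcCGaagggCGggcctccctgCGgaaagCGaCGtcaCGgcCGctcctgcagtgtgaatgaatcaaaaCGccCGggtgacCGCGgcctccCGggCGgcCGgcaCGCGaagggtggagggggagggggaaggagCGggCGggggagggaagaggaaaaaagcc
LHX6, start 1 of 3, chr9:122228434-122228683, minus strand: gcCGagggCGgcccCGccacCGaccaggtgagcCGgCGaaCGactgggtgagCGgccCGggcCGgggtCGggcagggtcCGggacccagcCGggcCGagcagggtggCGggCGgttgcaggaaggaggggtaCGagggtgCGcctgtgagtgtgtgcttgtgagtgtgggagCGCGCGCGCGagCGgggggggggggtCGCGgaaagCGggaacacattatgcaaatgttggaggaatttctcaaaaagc
SIX4, chr14:60724352-60724601, minus strand: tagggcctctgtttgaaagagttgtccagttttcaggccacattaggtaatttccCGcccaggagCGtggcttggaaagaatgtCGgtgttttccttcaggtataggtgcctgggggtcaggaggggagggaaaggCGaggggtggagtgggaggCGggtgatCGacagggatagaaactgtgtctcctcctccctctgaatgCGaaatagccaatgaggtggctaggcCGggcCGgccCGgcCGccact
SOX21, chr13:94712546-94712795, minus strand: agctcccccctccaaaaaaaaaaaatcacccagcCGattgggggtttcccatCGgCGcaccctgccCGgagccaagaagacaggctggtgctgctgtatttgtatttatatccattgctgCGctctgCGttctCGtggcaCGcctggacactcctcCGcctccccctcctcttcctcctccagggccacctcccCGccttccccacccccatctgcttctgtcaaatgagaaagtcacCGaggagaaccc
The FOXC1 window held 37 CG, and 4% of the 35116 promoters in the table held at least as many. The LHX4 window held 30 CG, a number that 12.4% of promoters reached. The first LHX6 window held 27 (17.7% of promoters), and its other windows held 11 and 7. SIX4 and SOX21 each held 11, which is the median of all promoters, and 50.3% of promoters held at least as many. FOXC1, which did not pass with siEZH2 over all arrays, thus had the most CG. The members that changed ran from 30 CG for LHX4 to 11 for SIX4 and SOX21. The LHX6 window with 7 CG was below the median of 11. SOX15 also changed, but no SOX15 promoter was listed. Promoters were listed for 87 of the 126 member genes (69%), too few to compare the families as a whole with other genes.

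The siRNA targets and the line's markers were read first as a check of the labels. EZH2 was 6.85-fold lower with siEZH2, from a normalized log2 intensity of 8.90 ± 0.52 (SD, n = 3) to 6.12 ± 0.57 (SD, n = 3; limma adjusted p = 0.00626). RELA was 3.96-fold lower with siRelA (adjusted p = 0.00193) and RELB 5.56-fold lower with siRelB (adjusted p = 0.000712), but the siRelA arrays had a 4.51-fold lower RELB level too (adjusted p = 0.0014). The mesenchymal markers VIM, CD44 and AXL were detected on all 12 arrays, with VIM signals of 21797.3 to 40568.9, whereas ESR1, PGR and FOXA1, which mark luminal breast cells, were detected on none. Of the 15 probes of the luminal list, however, 8 were detected on all 12 arrays, those of KRT8, KRT18, KRT19, EPCAM and XBP1 and 1 of ERBB2. FN1, also on the mesenchymal list, was detected on 3 and 4 arrays by its probes. The summed signal of the luminal list was 8758.0 to 11641.3 on the siNC CTRL arrays and 7650.2 to 8780.5 on the siEZH2 CTRL arrays, and that of the pluripotent and neural list was 2086.6 to 2945.2 and 3631.7 to 4905.5. Blood cell markers summed to 519.7 to 799.2 and 605.7 to 857.1, with CD3E detected on no array. Of the pluripotent and neural list, TUBB3 alone gave 1394.2 to 4058.3 over the 12 arrays, and no other probe exceeded 262.6. The sum of that list is thus mostly TUBB3. With siEZH2, by limma, 1 of 12 luminal probes fell (EPCAM, 2.67-fold, adjusted p = 0.0133) and 0 rose. Of 5 pluripotent or neural probes 2 rose: TUBB3 by 2.23-fold (adjusted p = 0.00934) and NES by at least 3.88-fold (adjusted p = 0.00628), the latter against the detection floor because NES was detected on 0 of the 3 siNC CTRL arrays. Of 4 blood probes 1 rose (CD14, 2.39-fold, adjusted p = 0.0226). Of 8 mesenchymal probes 1 rose and 1 fell. FN1 probe 4200167 rose by at least 1.3-fold against the detection floor (limma adjusted p = 0.0377). CAV1 fell by 1.66-fold (limma adjusted p = 0.043). Of all 13884 probes tested, 7.11% rose and 6.35% fell. The part of these lists in the results below was not tested. In bulk RNA, fewer cells of a type and less RNA per cell cannot be told apart.

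A few arrays stood apart. The replicate 2 arrays of siNC CTRL and siEZH2 CTRL had the highest background, with a median signal of undetected probes of 101.5 and 99.7, while the other 10 lay between 58.1 and 80.1. The siNC TNF array averaged 23.6 beads per probe, and the others 40.8 to 43.1. In the authors' processed values the arrays fell into 2 processing sets: a first of 4 arrays (siNC CTRL and siEZH2 CTRL, replicates 1 and 2), and a second of the other 8.

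Most of these factors gave little or no signal in this line. A probe was called detected when its detection p, 1 minus the deposited detection score, was under 0.05. Per array, 51 to 61 of the 155 member probes were detected (32.9% to 39.4%, median 56), against 55.6% to 58.2% of all probes. The siNC CTRL arrays detected 57, 53 and 54 members and the siEZH2 CTRL arrays 61, 54 and 55, so the groups overlapped. The siNC TNF array detected 56, siEZH2 TNF 51, siRelA CTRL 57, siRelA TNF 56, siRelB CTRL 56 and siRelB TNF 59. Hence no siRNA or TNF state stood apart from the siNC CTRL range by more than 4 probes.

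**Figure D1:**
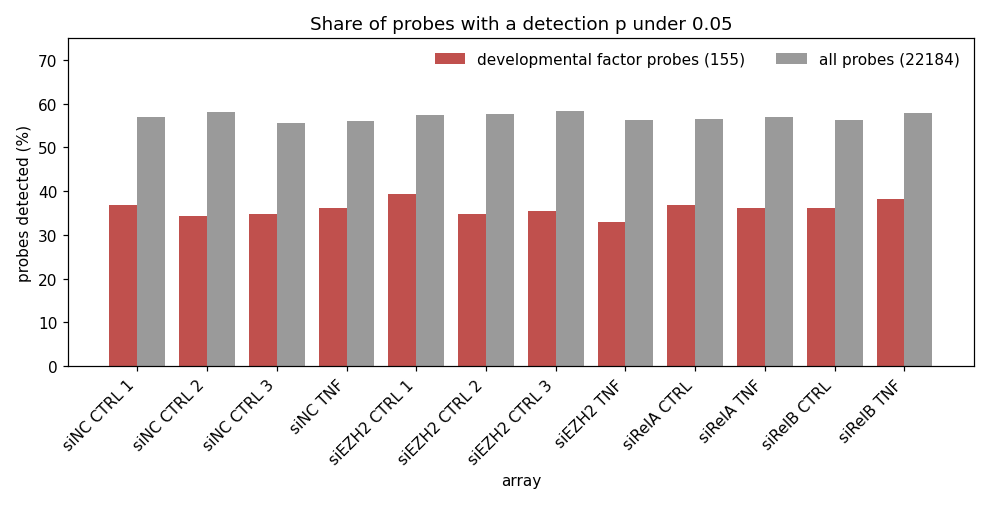
Share of probes with a detection p under 0.05 (y axis, percent) on each of the 12 arrays (x axis), for the 155 developmental factor probes (red bars) and all 22184 probes (grey bars). The red bars lie between 32.9% and 39.4% and the grey bars between 55.6% and 58.2%, so the developmental factors were detected less often on every array.

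Over all arrays, 30 member probes (19.4%) were detected on all 12, 65 (41.9%) on at least 3, 19 on 1 or 2 and 71 (45.8%) on none. Among all probes of the array the shares were 45.6% on all 12, 62.6% on at least 3 and 28.4% on none. By gene, 77 of the 126 had a probe detected on some array and 49 had none. The median signal of the 71 silent probes was 64.0, over a range of 39.3 to 118.7, which narrowed to a highest value of 96.3 without the replicate 2 arrays. Members were also dimmer, silent probes included: 111 of the 155 (71.6%) averaged under 100 on the linear signal scale, against 48.8% of all probes, and 3 (1.94%) averaged at least 1000, against 12.1%. A silent probe shows only that no signal above the negative controls was measured with that sequence.

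Families differed in how much of them was seen. Of the SOX probes, 13 of 22 were detected on at least 3 arrays, as were 20 of 43 FOX probes, 7 of 18 TBX probes, 5 of 6 sine oculis probes and 4 of 6 GATA probes. None of the 3 POU4F and 2 MSX probes reached 3 arrays. The other families had 3 of 13 PAX, 3 of 12 LHX, 2 of 8 NKX, 1 of 4 POU3F, 2 of 7 DLX, 2 of 5 MEIS and 3 of 6 IRX probes at that level. Among all probes 62.6% reached 3 arrays, and most families have few probes, so the family shares are rough. The sine oculis family, which acts in muscle, kidney and sensory organ formation, had 3 of its 6 probes detected on all 12 arrays. The POU4F factors of sensory neurons were not seen. The textbook regulators with no detected signal on any array covered most body plans: the endoderm factor SOX17, the kidney factor PAX2, the eye factor PAX6, the limb and heart factor TBX2, the head organiser factor LHX1, the forebrain factor LHX2, the bone factor DLX5, the heart and retina factors IRX4 and IRX5, the limb and tooth factor MSX1, the neural and heart factors NKX2-2 and NKX2-5, the neural factors POU3F1 and POU4F1, and FOXA1, FOXD1 and FOXF1. TBX3 and MSX2 were each detected on 1 array.

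Probes of a gene did not always agree. Of the 126 genes, 105 had 1 probe, 13 had 2 and 8 had 3. For 6 of these 21 genes (FOXA2, FOXI1, FOXP1, MEIS2, PAX8 and TBX1), 1 probe was detected on all 12 arrays and another on 0 to 2. FOXA2, an endoderm and liver factor, was the extreme case: probe 6620397 averaged a signal of 3031.0, while the other FOXA2 probes were detected on 10 arrays and on none. Levels given below for these genes belong to the named or detected probe. At the detection filter itself, GATA4, FOXI2, IRX6 and SOX2 were just inside with 3 arrays, and LHX3, PAX3, SOX11 and a probe each of MEIS2 and TBX6 were just outside with 2.

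The brightest member was FOXQ1, a forkhead factor linked to epithelial-mesenchymal transition in breast cancer lines, with a mean signal of 3383.0 and a range of 1834.6 to 5676.2 over the 12 arrays. After it and FOXA2 came, among others, FOXJ3 (mean signal 1010.2), SOX9, a cartilage and progenitor factor (703.5), FOXJ2 (618.5), FOXC1, a mesenchyme and eye factor common in basal-like breast tumours (569.8), SIX4 (517.3), SOX4 (483.6) and SOX13 (472.3). These are signals of different probes and give no order of transcript levels. FOXJ3 had the narrowest range of these first 3, at 851.8 to 1168.1.

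**Figure D2:**
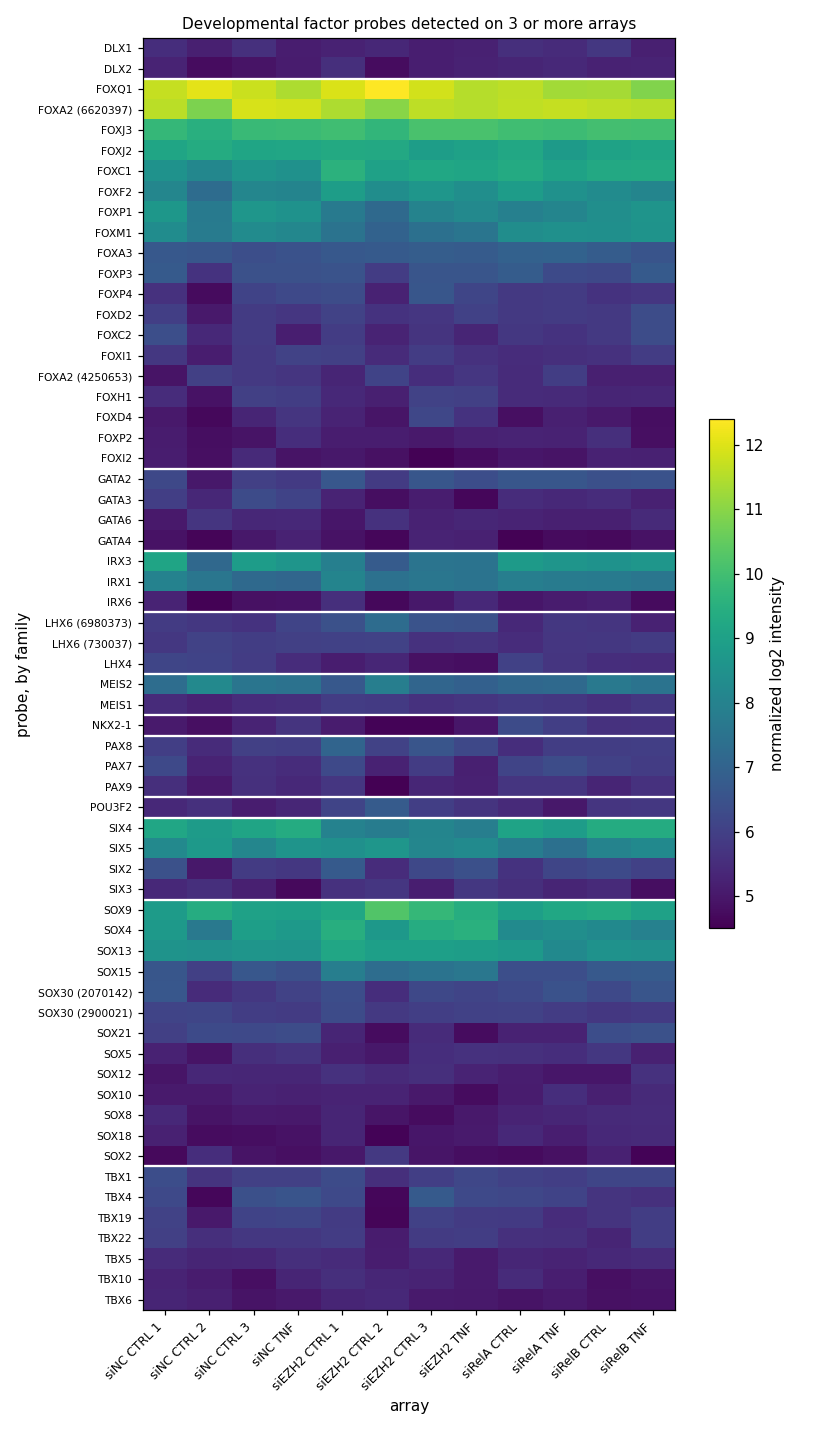
Normalized log2 intensity (colour scale) of 62 of the 65 developmental factor probes detected on at least 3 arrays (rows, grouped by family, with the brightest first) on the 12 arrays (columns). FOXQ1 and the FOXA2 probe 6620397 are bright throughout, most rows are dark in every column, and the SIX4 and SOX15 rows change in the 4 siEZH2 columns.

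Whether loss of EZH2 moved these factors was asked by setting siEZH2 CTRL against siNC CTRL (3 arrays against 3). Of the 65 members that passed the detection filter, 2 rose (SOX15 and LHX6) and 3 fell (SIX4, LHX4 and SOX21) at a limma adjusted p under 0.05. That was 5 of 65 (7.69%), against 13.5% of the 13884 probes tested, of which 7.11% were higher and 6.35% lower. At an unadjusted p under 0.05, 12 members were called, and 26.8% of all probes. The members' median log2 change was 0.09, that of all probes -0.01, and the members ranged from -1.06 to 1.15, with 41 above 0 and 24 below. Without a detection filter, 4 of 155 members passed, against 8.79% of 22184 probes. No member was detected on all 3 arrays of 1 group and on none of the other.

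SIX4, a factor of muscle and sensory organ formation, gave signals of 587.0, 669.3 and 580.7 on the siNC CTRL arrays and 294.7, 344.8 and 313.6 on the siEZH2 CTRL arrays. The same step was seen with TNF, at 671.6 for siNC and 271.3 for siEZH2. The siRelA arrays gave 594.9 (CTRL) and 491.1 (TNF) and the siRelB arrays 737.7 and 650.5. All 4 siEZH2 arrays therefore lay below the other 8, and the share of all probes in such an order was not counted. The fitted SIX4 change was 2.09-fold lower (log2 change -1.06 ± 0.18 SE, limma adjusted p = 0.0129).

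SOX15, a SOX factor needed for muscle regeneration in mice, gave 142.2, 157.3 and 144.8 on the siNC CTRL arrays and 271.9, 273.8 and 228.5 on the siEZH2 CTRL arrays. The siNC TNF array gave 131.5, the siEZH2 TNF array 238.4, siRelA 126.5 and 127.3, and siRelB 146.9 and 141.5. Every siEZH2 array was above each of the other 8, and the share of all probes in such an order was not counted. SIX4 and SOX15 were chosen by a fit that used the siEZH2 CTRL arrays, so their separation was in part built into the choice. The fitted change was 2.22-fold higher (log2 change 1.15 ± 0.25 SE, limma adjusted p = 0.0266).

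LHX4, a pituitary and motor neuron factor, gave 119.3, 163.6 and 108.0 with siNC CTRL and 83.4, 124.0 and 88.7 with siEZH2 CTRL. It was detected on 3 of the former arrays and on 1 of the latter. The TNF arrays gave 95.3 for siNC and 81.7 for siEZH2, siRelA gave 107.6 and 96.8, and siRelB 88.5 and 84.7. On this raw scale the groups overlap through the higher background of the replicate 2 arrays. After normalization they did not overlap, with means of 6.05 ± 0.13 and 5.12 ± 0.25 (SD, n = 3) and a 1.90-fold lower level (log2 change -0.93 ± 0.20 SE, limma adjusted p = 0.0251).

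SOX21, a factor of neural progenitors, gave 114.2, 175.8 and 122.9 with siNC CTRL and 89.0, 105.5 and 105.9 with siEZH2 CTRL, detected on 3 and 2 of the arrays. With TNF it gave 127.7 for siNC and 81.4 for siEZH2. It was also low on both siRelA arrays, at 79.8 and 81.5, and not on the siRelB arrays, at 126.2 and 122.9. The SOX21 level was 1.99-fold lower with siEZH2 (log2 change -0.99 ± 0.23 SE, limma adjusted p = 0.0342).

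LHX6, an interneuron and jaw factor, was read by probes that did not move together. Probe 6980373 gave 108.9, 143.9 and 99.7 with siNC CTRL and 135.9, 268.5 and 148.7 with siEZH2 CTRL. Its TNF arrays gave 117.5 for siNC and 139.7 for siEZH2, siRelA gave 85.2 and 99.0, and siRelB 96.6 and 78.1. Normalized, the siEZH2 arrays lay above the siNC arrays, a 1.97-fold higher level (log2 change 0.98 ± 0.26 SE, limma adjusted p = 0.0476). Probe 730037, detected on as many arrays, had a log2 change of -0.02 ± 0.20 (limma adjusted p = 0.971). LHX4, SOX21 and LHX6 all had signals close to the range of the silent probes, so these changes are read from dim spots.

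**Figure D3:**
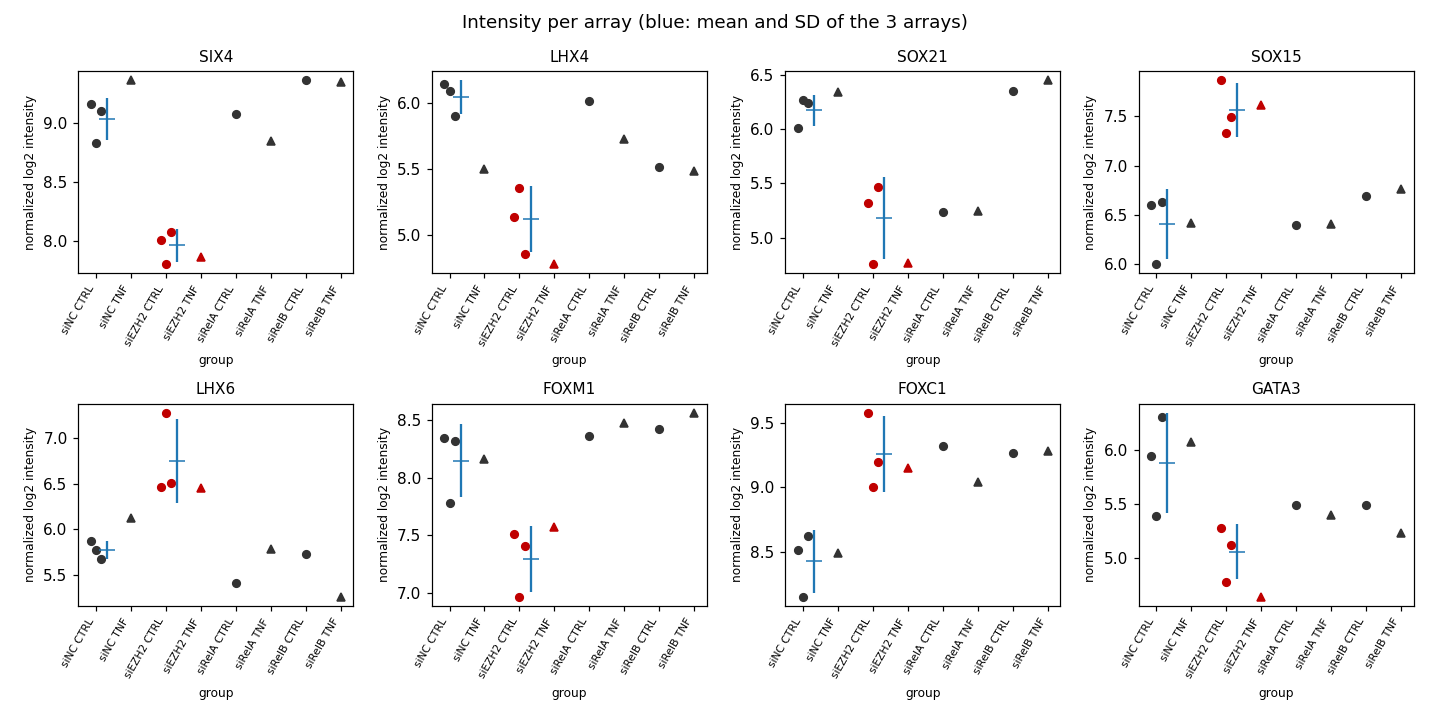
Normalized log2 intensity (y axes, each with its own range) on each array for 8 members, by group (x axes). Circles are arrays without TNF, triangles arrays with TNF, red points siEZH2, and the blue cross and bar give the mean and SD of the 3 arrays of siNC CTRL or siEZH2 CTRL. The LHX6 panel is probe 6980373. In the SIX4, SOX15 and FOXM1 panels the 4 red points lie apart from the other 8, and in the FOXC1 panel the 4 siNC points lie below the rest. How many of all probes set the siEZH2 arrays apart in this way was not counted.

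Samples with the same replicate number deviated together, so the comparison was also fitted with the replicate number as a block. No label states this pairing, which was inferred from these same arrays. With the block, 21 of the 65 members passed (32.3%), against 41.6% of all probes. Of them 13 rose (20.8% of all probes did) and 8 fell (20.8% of all probes did). In the 8 arrays of the second processing set alone, over both TNF states, 22 members passed, against 49.4% of all probes, 10 of them higher (24.3% of all probes) and 12 lower (25.1%). That fit had 1 array per siRNA and TNF state, so an siRNA's CTRL and TNF arrays stood in as replicates. Its p-values, here and below, cover only the departure from additive siRNA and TNF terms, not a spread between arrays of a group. In the first set alone (2 arrays against 2) 0 members passed in limma, as did 0 of all probes, with log2 changes of -1.07 for SIX4, 1.30 for SOX15, -0.90 for LHX4, -1.13 for SOX21 and 1.09 for LHX6. In the second set these were -1.26, 1.03, -0.88, -1.15 and 0.57, and LHX6 did not pass (limma adjusted p = 0.0627). Direction was the same in both sets for these 5 probes. They were chosen by a fit that used the arrays of both sets, so this agreement was largely built into the choice. The count was 0 when siNC CTRL replicate 1 or 3 or siEZH2 CTRL replicate 1 or 3 was left out. The share of all probes was then 3.74% to 5.42%. The count was 6 without siNC CTRL replicate 2 (15.7% of all probes) and 3 without siEZH2 CTRL replicate 2 (9.42%). Without both replicate 2 arrays it was 15 (28.9% of all probes).

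The members that passed only with the block came from several families. FOXM1, the forkhead factor that drives the genes of mitosis, gave 352.1, 364.9 and 359.2 with siNC CTRL, 221.6, 232.8 and 220.0 with siEZH2 CTRL, 319.7 with siNC TNF and 233.3 with siEZH2 TNF. It gave 378.6 and 387.5 with siRelA and 403.1 and 394.6 with siRelB. The 4 siEZH2 arrays lay below the other 8, an order that was not counted over all probes. The log2 change of FOXM1 was -0.85 ± 0.24, with a limma adjusted p of 0.0622 without the block and 0.00106 with it. Mitosis genes commonly given as FOXM1 targets changed more: 12 of the 20 tested probes fell (6.35% of all probes did) and 0 rose, with a median log2 change of -1.58, and all 20 fell with the block (20.8% of all probes did). CDC20, which activates the anaphase-promoting complex, was 4.43-fold lower, the checkpoint kinase BUB1 3.57-fold and cyclin A2 (CCNA2) 3.45-fold. The list's summed signal was 44743.6 to 52885.0 on the siNC CTRL arrays and 12955.1 to 19773.9 on the siEZH2 CTRL arrays. The list was chosen with earlier results of these data known, so its falls are no separate test of the FOXM1 estimate. The part of the list in the changes of the other members was not tested.

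Among the other SOX genes, SOX9 gave 478.4, 931.1 and 550.9 with siNC CTRL and 602.2, 1435.8 and 853.2 with siEZH2 CTRL. In each pair of equal replicate number the siEZH2 array was the higher, although the groups overlapped, and the log2 change was 0.66 ± 0.30 (limma adjusted p = 0.219, with the block 0.00736). SOX4, a factor of progenitor cells, gave 453.8, 343.6 and 526.0 against 717.5, 567.9 and 660.3, and 467.4 against 703.0 with TNF. Its signals with siEZH2 were all above those with siNC, yet the normalized values overlapped, and the log2 change was 0.72 ± 0.38 (limma adjusted p = 0.282, with the block 0.00622). SOX13 had 0.48 ± 0.17 (0.117, with the block 0.015). SOX10, the neural crest and glial factor, had 0.06 ± 0.18 (0.909), and the stem cell factor SOX2, detected on 3 arrays, 0.20 ± 0.32 (0.794).

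GATA3, which marks luminal breast cells, was dim in this line, at 112.0, 128.3 and 126.1 with siNC CTRL and 87.7, 106.3 and 96.1 with siEZH2 CTRL. It was detected on 3 arrays of the first group and 1 of the other. The arrays did not overlap, and the log2 change was -0.83 ± 0.28 (limma adjusted p = 0.101, with the block 0.00386). GATA2, a blood and vessel factor, gave 121.7, 116.7 and 111.1 against 148.6, 145.6 and 153.5, with a log2 change of 0.63 ± 0.37 (limma adjusted p = 0.34, with the block 0.00555). GATA2 and GATA3 thus had estimates of opposite sign. GATA6 (-0.09 ± 0.26) and GATA4 (0.10 ± 0.23) did not pass in either fit.

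IRX3, a neural tube and limb factor, gave 564.9, 264.7 and 506.4 with siNC CTRL and 277.7, 211.9 and 235.2 with siEZH2 CTRL. The siNC CTRL replicate 2 array alone reached down to the siEZH2 range, and the log2 change of -0.98 ± 0.54 did not pass (limma adjusted p = 0.316, with the block 0.00503). POU3F2, a neuronal POU factor, gave 93.6, 136.2 and 84.2 against 117.8, 213.5 and 121.5, with a log2 change of 0.90 ± 0.27 (limma adjusted p = 0.0708, with the block 0.00172). PAX8, a thyroid and kidney factor, had 0.75 ± 0.29 (0.148, with the block 0.00384), and FOXP1, a forkhead repressor, -0.68 ± 0.33 (0.249, with the block 0.00472). MEIS2 (-0.48 ± 0.37, limma adjusted p = 0.496, with the block 0.0163) and MEIS1 (0.39 ± 0.18, 0.222, with the block 0.0507), both cofactors of HOX proteins, had estimates of opposite sign. FOXF2 (0.80), FOXP4 (0.58), SIX2 (0.37) and FOXD4 (0.46), named here after their values were seen, and FOXC1, described below, were the remaining members that passed only with the block. FOXD4 has near-identical copies, so its probe is uncertain.

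Other textbook members did not pass with or without the block. FOXQ1 had a log2 change of 0.22 ± 0.22 (limma adjusted p = 0.623), FOXA2 probe 6620397 of -0.10 ± 0.31 (0.913) and FOXC2 of -0.27 ± 0.30 (0.691). FOXP3, the regulatory T cell factor, had 0.06 ± 0.33 (0.955). TBX1 (-0.09 ± 0.27), TBX5 (-0.04 ± 0.18) and DLX1 (-0.17 ± 0.19) had estimates near 0.

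**Figure D4:**
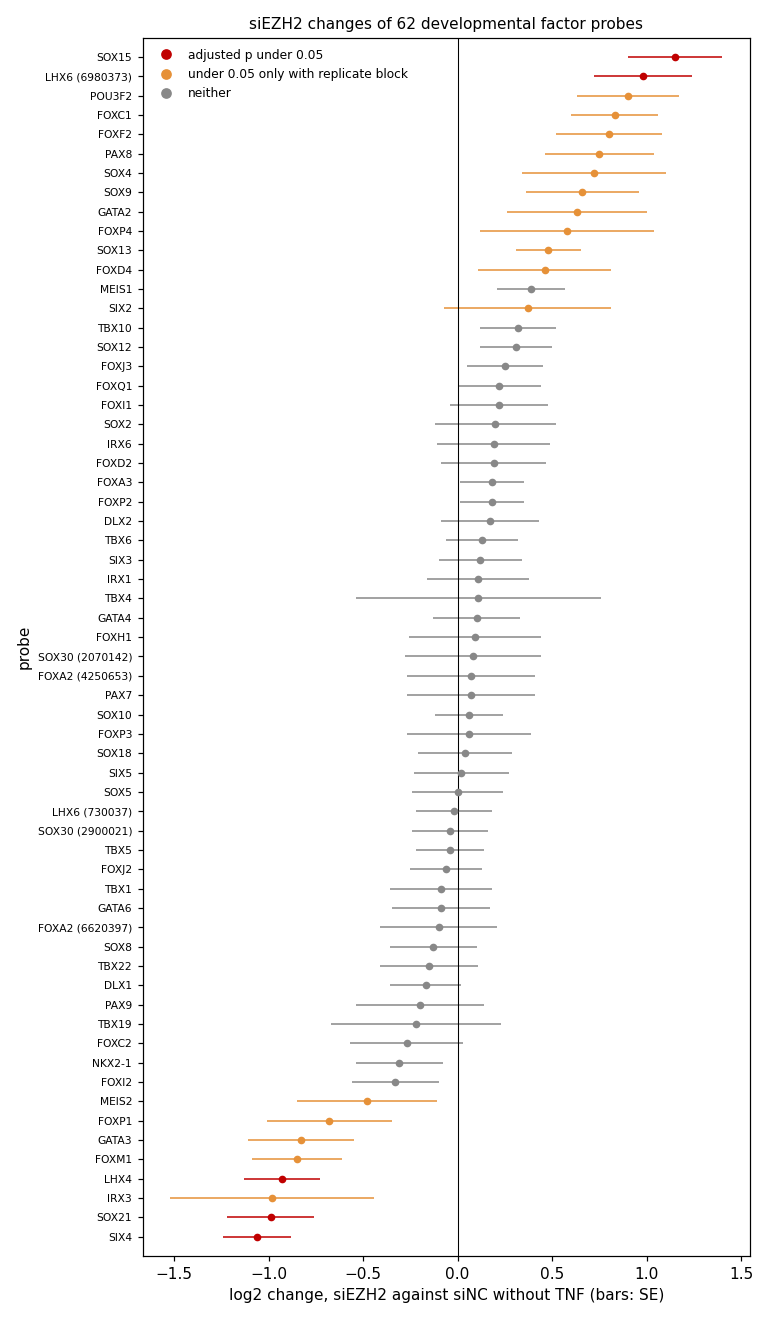
Log2 change with siEZH2 against siNC without TNF (x axis; points are estimates, bars are SE) for 62 of the 65 developmental factor probes detected on at least 3 arrays (y axis, ordered by change). Red points passed at an adjusted p under 0.05, orange points passed only with the replicate number as a block, and grey points passed in neither fit. The 5 red points lie at the ends, between -1.06 (SIX4) and 1.15 (SOX15), and the middle of the plot is grey.

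Textbook Polycomb-marked regulators outside these families were counted in the same way. Of 86 listed genes, 81 were on the array with 97 probes, of which 41 passed the detection filter, 18 were detected on all 12 arrays and 46 on none. With siEZH2, 0 rose (against 7.11% of all probes) and 2 fell (against 6.35%): WT1, the kidney and gonad zinc finger factor (2.40-fold lower, limma adjusted p = 0.0293), and ZIC2, a forebrain zinc finger factor (2.57-fold lower, limma adjusted p = 0.0448). The list's median log2 change was -0.03, and with the block 6 rose and 6 fell (20.8% of all probes did each). In the siRelA, siRelB and TNF comparisons 0 of its probes passed.

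Changes with siRelA and siRelB were asked over both TNF states (2 arrays against the 4 siNC arrays), and these comparisons share the siNC arrays with each other and with siEZH2. By limma 0 of 65 members passed with siRelA, against 1.82% of all probes, and 0 with siRelB, against 0.987%. At an unadjusted p under 0.05 there were 8 members with siRelA (11.3% of all probes) and 3 with siRelB (9.94%). Estimates ran from -0.96 for SOX21 to 0.86 for NKX2-1 with siRelA, the latter named after its value was seen, and from -0.54 for GATA3 to 0.85 for FOXC1 with siRelB. SOX21 with siRelA (-0.96 ± 0.22) had the lowest limma adjusted p of any member, 0.0642. In the second processing set alone, 15 members passed with siRelA, against 16.6% of all probes, 7 higher (8.49% of all probes) and 8 lower (8.08%). With siRelB, 12 passed there, against 14.6%, 6 higher (7.05%) and 6 lower (7.59%).

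FOXC1 passed in none of the 3 siRNA comparisons as fitted over all arrays, but its signals were lowest on the siNC arrays. It gave 390.0, 443.3 and 433.7 with siNC CTRL and 387.7 with siNC TNF. With siEZH2 CTRL it gave 773.5, 671.3 and 595.3, with siEZH2 TNF 570.0, with siRelA 704.6 (CTRL) and 550.9 (TNF), and with siRelB 695.6 and 621.8. The 4 siNC arrays thus lay below all 8 others. Its log2 change was 0.83 ± 0.23 with siEZH2 (limma adjusted p = 0.0563, with the block 0.00244), 0.75 ± 0.20 with siRelA (0.109) and 0.85 ± 0.20 with siRelB (0.0955). In the second set these were 0.62, 0.63 and 0.72, with limma adjusted p of 0.00249, 0.0104 and 0.008. After these values were seen, all probes were searched for the same order on the normalized scale: 2 of 65 members, FOXC1 and MEIS1, had the 4 siNC arrays below all 8 others, against 2.45% of all probes, and 0 had them above, against 1.74%.

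In the second set several other members passed with more than 1 siRNA, and the values of GATA2, GATA3, SOX4 and IRX1, the last chosen after its values were seen, are set side by side without a count because these comparisons share their siNC arrays. GATA2 had log2 changes of 0.55 with siEZH2, 0.69 with siRelA and 0.53 with siRelB, with limma adjusted p of 0.00445, 0.0079 and 0.0211. GATA3 had -1.30, -0.73 and -0.81, with limma adjusted p of 0.000151, 0.00828 and 0.00714. SOX4 had 0.58 with siEZH2 but -0.52 with siRelA and -0.75 with siRelB, with limma adjusted p of 0.00882, 0.0379 and 0.0139. The SOX4 signals were 357.8 and 372.4 with siRelA and 359.7 and 273.8 with siRelB, against 526.0 and 467.4 on the siNC arrays of that set. IRX1, a lung and heart homeobox factor, had 0.40, 0.67 and 0.52, with limma adjusted p of 0.00615, 0.00379 and 0.011. Over all arrays IRX1 had 0.11 ± 0.27 with siEZH2 (limma adjusted p = 0.884). With siRelA it had 0.41 ± 0.24 (0.62), and with siRelB 0.26 ± 0.24 (0.843). Its siNC signals in the second set were 192.2 (CTRL) and 180.2 (TNF), and those of siNC CTRL replicates 1 and 2 were 288.6 and 328.6. The siEZH2 CTRL signals were 305.5, 288.9 and 243.7. GATA2, GATA3 and IRX1 had the same sign with each siRNA, and SOX4 did not. Among members not set out here, FOXF2 (0.45 with siEZH2, 0.60 with siRelA) and FOXP1 (-0.45 and -0.57) passed with both of these siRNAs in the second set. The shared siNC arrays push these signs toward agreement, so the equal signs are not separate observations. FOXQ1 passed there with siRelB alone among the 3 siRNAs (-0.49, limma adjusted p = 0.0168), and the difference between siRNAs was not tested.

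TNF moved none of these factors past the threshold. By limma 0 of 65 members passed in TNF against no TNF (4 arrays against 8), as did 0% of all 13884 probes, and 2 members had an unadjusted p under 0.05 (1.69% of all probes). FOXQ1 had the largest member estimate, a log2 change of -0.44 ± 0.13 (limma adjusted p = 0.997). Each TNF array was also set against the CTRL array of its siRNA in the same processing set, which for siNC and siEZH2 is replicate 3. FOXQ1 was lower with TNF under each siRNA. Its log2 difference was -0.33 with siNC, -0.34 with siEZH2, -0.30 with siRelA and -0.44 with siRelB. FOXQ1 had the largest estimate over these same arrays, so this agreement was in part fixed by that estimate. FOXF2, GATA3, IRX1, LHX4 and SOX13 were also lower under each siRNA. DLX2 and LHX6 probe 730037, named after their values were seen, were higher under each. The share of all probes was counted for neither order, so no TNF response is read from these members. FOXQ1 signals were 3234.5, 4823.3 and 3477.8 with siNC CTRL and 2710.6 with siNC TNF. They were 3793.7, 5676.2 and 3502.7 with siEZH2 CTRL and 2779.8 with siEZH2 TNF, 3362.2 and 2606.3 with siRelA, and 2793.8 and 1834.6 with siRelB. The siEZH2 by TNF interaction passed for 0 of 65 members and 0% of all probes, with 0 members and 0.18% of all probes at an unadjusted p under 0.05.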

How the data were processed

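The deposited probe table holds linear signal intensity, averaged over beads and without normalization, per the file headers, with a detection score and a bead number per probe. The deposited score rises with signal, so 1 minus the score served as the detection p. BeadStudio 3.2.7 was used, per the submitters' processing notes. The authors also deposited processed log2 values. Against 5973 bright probes these equalled log2 signal minus a constant per array and a centre per probe, computed separately in 2 sets of arrays (SD within a set at most 5.27e-07, between sets at least 0.334). Scale, centring and direction were read from these values, and no source used here names the tool for it. Their column medians were -0.0267, 0.0135 and 0.0283 for siNC CTRL replicates 1 to 3, -0.0544, 0.0518 and 0.214 for siEZH2 CTRL, 0.0694 for siNC TNF, 0.198 for siEZH2 TNF, -0.0663 for siRelA CTRL, -0.014 for siRelA TNF, -0.116 for siRelB CTRL and -0.0377 for siRelB TNF. This table was used as an alternative.

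Signals were corrected in limma 3.58.1 (R 4.3.3) by normexp from the detection p, with an offset of 16, quantile normalized and put on a log2 scale. Probes with a detection p under 0.05 on at least 3 of 12 arrays were kept (13884 probes) and tested singly with lmFit and eBayes, with Benjamini-Hochberg adjustment over all of them at 0.05. siEZH2 and the interaction came from a fit of 8 group means, in which a lone TNF array is assumed to vary like the triplicates, and siRelA, siRelB and TNF from a fit with siRNA and TNF as additive terms. The pipeline was tested on simulated data. The number of arrays limits the precision.

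Replicate numbers come from the sample titles. Deviations from the group means correlated at 0.762, 0.84 and 0.648 between siNC CTRL and siEZH2 CTRL arrays of equal number. Between replicates 1 and 3 the correlations were 0.427 and 0.414, and with 1 array of replicate 2 they were -0.772 to -0.592. No label states a pairing, so it was inferred from these same data, and the numbers were taken to pair the arrays for the block. Members named with values were those past the threshold in any comparison, the 10 brightest, and a set of textbook representatives per family, of which FOXK1, FOXO1 and FOXO3 are not gene names of the table. Exceptions are named where they occur, and a few members that met the rule are not reported here singly, although they are in all counts. The members and lists were chosen with earlier results of these data known. Gene names are those of the probe table. Promoters came from RefSeq (GRCh38.p14).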

Additional observations from a re-analysis of the deposited data

How the results depend on the processing

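Shares of all probes are given in brackets. The number of members called with siEZH2 (5) was 4 with scaling to the 75th percentile (12.2%), without the detection filter (8.79%) or with detection on all 12 arrays (17.5%). It was 5 with an offset of 50 (14.9%) or 1 probe per gene (14.7%). It was 3 without background correction (14.8%), 0 with the authors' values (6.51%) and 2 with those values and a set term (11.4%). A set term gave 2 (9.98%), the first processing set 0 (0%) and the second 22 (49.4%). Leaving out both replicate 2 arrays gave 15 (28.9%) and the replicate block 21 (41.6%). Leaving out 1 array gave 0 to 6 (3.74% to 15.7%). Over all probes the 1868 calls became 904 with the authors' values, 0 in the first set, 6859 in the second, 4019 without the replicate 2 arrays, 5774 with the replicate block and 519 to 2174 with 1 array left out. SIX4 lost its call in 6 of 19 alternatives, SOX15 in 7 of 19, LHX4 in 8 of 18, SOX21 in 12 of 18 and LHX6 in 14 of 19, and none of these changed sign. For siRelA the 0 members became 2 with the authors' values and a set term (2.63% of all probes) and 15 in the second set (16.6%). They became 9 without the replicate 2 arrays (11.5%) and 0 to 1 with 1 array left out. The 1 came without siEZH2 CTRL replicate 2 (2.36%) or 3 (1.45%). For siRelB the 0 members became 12 in the second set (14.6% of all probes) and 6 without the replicate 2 arrays (9.64%). All-probe calls ranged from 28 to 2301 with siRelA (253 in the main comparison) and from 5 to 2033 with siRelB (137). TNF and the interaction stayed at 0 members in all alternatives run. The cause of these shifts was not tested. In the second set the interaction was a single siEZH2-by-TNF term added to the additive fit, with siNC, siRelA and siRelB sharing 1 TNF term. Of the 65 detected members, 54 passed at a detection p under 0.01. Reading the rule as any name that starts with a family name and a number gave 69, adding probes such as FOXD4L1 and FOXO3A.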
